A study of Homo sapiens and Mus musculus with 33 samples.

Results

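The HOX genes are homeobox transcription factors that lie in 4 clusters, HOXA, HOXB, HOXC and HOXD, and that give cells along the body axis their positional identity. Within a cluster the genes stand in the order of their paralogue groups, from low-numbered anterior genes to high-numbered posterior genes, and they tend to be used in blocks of neighbours. Active HOX blocks carry wide domains of acylated and H3K4-methylated chromatin, silent blocks are usually held by Polycomb proteins, and the adult gut epithelium keeps a posterior HOX pattern together with CDX1 and CDX2.

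HOX genes were taken as every gene of the RNA tables whose symbol is HOX, a cluster letter and a number. That gave 39 of 25965 genes in mouse colon epithelium and 39 of 35805 genes in HCT116 cells, with 11 genes in cluster A, 10 in B, 9 in C and 9 in D in each species. Peaks of the ChIP-seq tables were assigned to them when they overlapped a HOX gene or lay within 2 kb of one. This gave 37 of 30338 peaks for H3K18 crotonylation (H3K18cr) in colon, 67 of 27035 for H3K4me3 in colon, and 29 of 40266 in HCT116, where H3K18cr and H3K18 acetylation (H3K18ac) were read over 1 shared list of peaks. In GRCm38 the clusters span chr6:52155367-52260880 (Hoxa), chr11:96194316-96368256 (Hoxb), chr15:102921103-103036843 (Hoxc) and chr2:74668310-74765143 (Hoxd). In GRCh38 they span chr7:27092993-27200106 (HOXA), chr17:48528526-48729178 (HOXB), chr12:53938765-54056030 (HOXC) and chr2:176092891-176190907 (HOXD).

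The study asked where histone crotonylation, an acylation of histone lysines related to acetylation, sits in the gut epithelium, and what happens to it when class I histone deacetylases are inhibited. Colon epithelium came from untreated C57BL/6 mice, all male, whose age is not given, and was released from the tissue with EDTA. It gave 3 RNA libraries, 2 H3K18cr libraries with 2 inputs and 3 H3K4me3 libraries with 1 input, and the methods describe H3K18cr chromatin as prepared from pooled colons. HCT116, a human colon carcinoma line, was treated for 18 h with 5 µM MS275 (entinostat, an inhibitor of class I histone deacetylases) or with DMSO, and gave 4 RNA libraries per treatment, 3 libraries of each mark per treatment and 1 input per treatment. The study's methods call the colon RNA libraries (separate mice), the HCT116 RNA libraries and the H3K4me3 libraries biological replicates. For ChIP of HCT116 the methods speak of biological replicates of the experiment, but name fewer H3K18cr replicates than the libraries used here, and the labels tie no library to a culture, so those p-values measure the spread between these samples, which may be technical.

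RNA libraries held between 8166406 and 10707901 assigned reads in colon and between 35608533 and 53415604 in HCT116, and ChIP libraries between 1105419 and 5730094 reads over all peaks of their table. All 9 epithelial and all 9 colonocyte and goblet markers were above 1 CPM in colon (CPM being a gene's reads scaled by its library's total), with summed levels of 8618 to 10224 CPM and 13999 to 20270 CPM. The colon libraries also held small amounts of other cell types. Stromal markers summed to 17.8, 22.6 and 24.5 CPM in libraries 1, 2 and 3, smooth muscle markers to 51.9, 31.8 and 37.8 CPM, and immune markers to 49.5, 63.9 and 74.6 CPM. HCT116 with DMSO held 3624 to 5164 CPM of the epithelial markers, and 5 of the 9 colonocyte and goblet markers had no read in any of its DMSO libraries. Its stromal markers summed to 7.11 to 11.4 CPM with DMSO and 12.97 to 20.8 CPM with MS275, with 3 and 1 of the 7 at 0, and their part in the results with MS275 was not tested.

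In colon epithelium the Hoxb cluster gave most HOX RNA, the Hoxa and Hoxd clusters gave less, and the Hoxc cluster gave almost none. At a level of at least 1 CPM, 24 of the 39 genes were measured: 9 of 11 in Hoxa, 9 of 10 in Hoxb, 0 of 9 in Hoxc and 6 of 9 in Hoxd, where Hoxd1 passed that level in library 3 alone. The whole set summed to 694.7 ± 7.33 CPM (SD, n = 3), a total that varied little between libraries. Hoxb genes held 446.9 ± 9.80 CPM, Hoxa genes 179.4 ± 18.7 CPM, and Hoxd genes 68.2 ± 19.9 CPM. The 9 Hoxc genes together received 6 reads in the 3 libraries, all in Hoxc4 and Hoxc6, or 0.219 ± 0.207 CPM. The other 7 Hoxc genes and Hoxb1 had no read, where 3 reads would correspond to 0.28 to 0.367 CPM, a limit that covers counting error only.

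**Figure D1:**
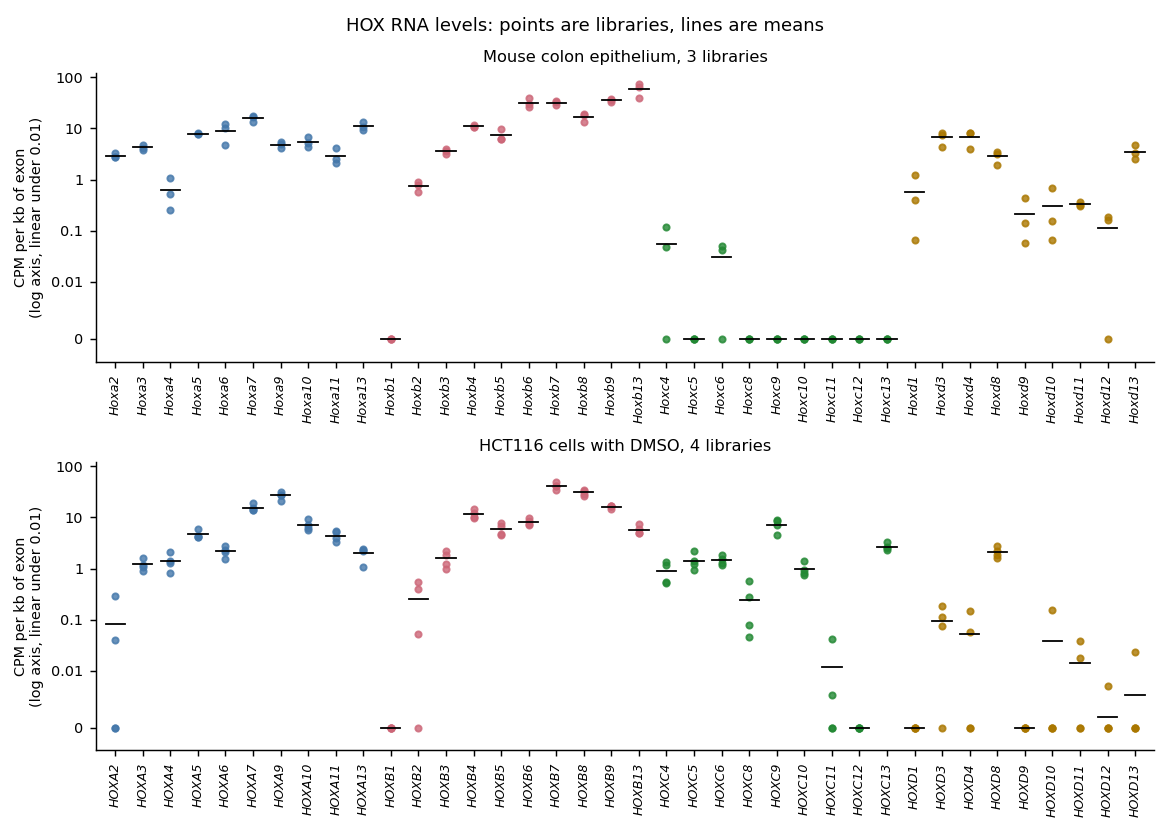
RNA level of HOX genes (all but 1) in CPM per kb of exon (log axis, linear under 0.01), for 3 colon libraries (top) and 4 HCT116 libraries with DMSO (bottom); points are libraries, lines are means, and colours are clusters A to D. Hoxb13 has the highest mean in colon at 59.4 CPM per kb and HOXB7 in HCT116 at 41.6, and Hoxc genes sit at or near 0 in colon.

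Levels were compared between genes as CPM per kb of exon, which removes gene length. On that scale the 5 highest genes in colon were all in the Hoxb cluster. Hoxb13, the most posterior Hoxb gene and a known marker of the hindgut and its derivatives, stood first with 59.4 ± 18.7 CPM per kb. Its mean was above 94.5% of the genes that had an exon length and any read. Its levels in libraries 1, 2 and 3 were 166.3, 85.7 and 141.2 CPM. Library 2 was the low one: Hoxb13 stood there at 38.9 CPM per kb, level with Hoxb9 at 38.1 and Hoxb6 at 39.4, while it was the highest HOX gene in libraries 1 and 3, at 75.4 and 64.01 CPM per kb. Hoxb9 followed with 35.9 ± 2.28 CPM per kb, from 86.5, 98.2 and 93.0 CPM, and was the steadiest of the 5. Hoxb6 gave 31.9 ± 6.85 CPM per kb, from 50.8, 77.3 and 59.99 CPM. Hoxb7 gave 31.6 ± 3.17 CPM per kb, from 43.5, 53.04 and 49.99 CPM. Hoxb9, Hoxb6 and Hoxb7 overlapped in their library values, so their order is not resolved, while all 3 stood above Hoxb8. Hoxb8 gave 17.1 ± 3.05 CPM per kb, from 35.8, 49.3 and 49.99 CPM, and overlapped Hoxa7, the highest gene of its own cluster, at 15.9 ± 2.00 CPM per kb.

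Library 2, low for Hoxb13, was the highest of the 3 for Hoxb5 (27.1 against 17.3 and 17.5 CPM) and for Hoxb6. Library 1 was the lowest for Hoxd3 and Hoxd4, which are anterior Hoxd genes: Hoxd3 stood at 18.4, 34.7 and 31.3 CPM and Hoxd4 at 11.6, 23.6 and 24.0 CPM. In their sums, stromal and immune markers (given above) and enteric glial markers (4.65, 8.50 and 7.83 CPM) were also lowest in library 1. Smooth muscle markers were highest there, at 51.9 CPM. The stromal sums followed Vim, at 10.4, 15.3 and 17.3 CPM in libraries 1, 2 and 3. The stromal markers Dcn and Lum were lowest in library 2, and Col1a1, Col1a2 and Col3a1 in library 3. The part of these cells in the Hoxd levels was not tested, and in bulk tissue more cells of a type cannot be told apart from more RNA per cell. Hoxd3 and Hoxd4 share 388 bp of exon on the same strand, and 53.1% of the Hoxd3 exons and 39.1% of the Hoxd4 exons are shared with Gm28230, also on the same strand, so their reads are uncertain between these genes. Among the remaining Hoxd genes, Hoxd13, a posterior gene, was measured at 8.33, 6.26 and 11.6 CPM and Hoxd8 at 5.27, 9.43 and 8.66 CPM, while Hoxd9, Hoxd10 and Hoxd12 stayed under 1 CPM on average.

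HOX RNA was also summed by paralogue group. Groups 1 to 3 held 6.61 ± 1.19% of HOX RNA per kb in colon, groups 4 to 8 held 49.9 ± 5.57%, and groups 9 to 13 held 43.5 ± 6.75%. In HCT116 with DMSO the same groups held 1.88 ± 0.288%, 62.3 ± 2.93% and 35.8 ± 2.68% (SD, n = 4). The low-numbered groups were the smallest in both, and groups 4 to 8 the largest on average. Colon and HCT116 differ in species, in tissue and in the table they come from, so their levels are set side by side and no test was made between them.

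In colon chromatin the division between clusters was sharper for H3K18cr than for H3K4me3, the mark of gene starts. H3K18cr peaks covered 57.0% of the Hoxa cluster, 36.7% of Hoxb, 1.17% of Hoxc and 3.72% of Hoxd. H3K4me3 peaks covered 42.3% of Hoxa, 25.9% of Hoxb, 14.4% of Hoxc and 28.5% of Hoxd. Hoxc and Hoxd thus held 14 and 19 H3K4me3 peaks but 1 and 2 H3K18cr peaks. Without the long gap that separates Hoxb13 from the other genes, the Hoxb figures were 37.7% for H3K18cr and 33.2% for H3K4me3.

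**Figure D2:**
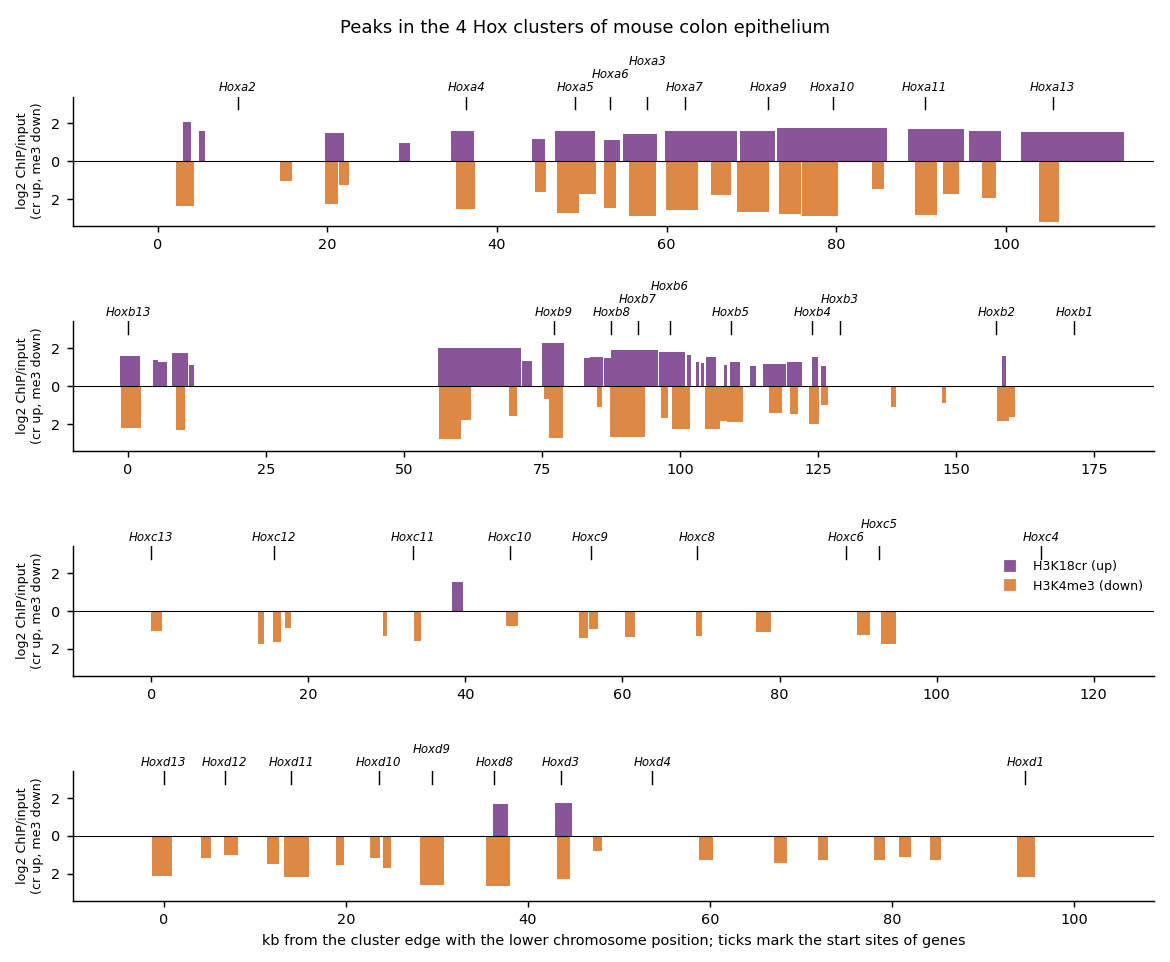
Peaks in the 4 Hox clusters of mouse colon epithelium; the x axis is distance in kb from the edge of each cluster with the lower chromosome position, the y axis the mean log2 ratio of ChIP to input, with H3K18cr drawn upwards and H3K4me3 downwards, and ticks mark the starts of all HOX genes but 1. H3K18cr blocks fill Hoxa3 to Hoxa13 and Hoxb4 to Hoxb9, and 1 H3K18cr peak stands in Hoxc and 2 in Hoxd.

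H3K18cr formed long blocks over the transcribed stretches. The peak over Hoxa9 and Hoxa10 was the widest of the HOX peaks at 13050 bp (chr6:52228351-52241400), with 712 and 1858 scaled reads in libraries 1 and 2. The peak over Hoxa13 was 12150 bp wide, with 555 and 1543 scaled reads, and the peak over Hoxb7 and Hoxb8 was 7350 bp wide, with 725 and 861. These were the 3 HOX peaks with the most H3K18cr reads. Library 2 was higher at all 3, but unevenly: its log2 ratio to library 1 had a median of 1.43 over the 4 peaks of Hoxa9 to Hoxa13 and of 0.29 over the 18 peaks of Hoxb2 to Hoxb9, against 0.66 over all 30338 peaks. The H3K18cr lead of posterior Hoxa over Hoxb therefore rests on library 2, and with 2 libraries it was not tested. Hoxb9 had the highest ratio to input among HOX peaks, a log2 ratio of 2.25. The median HOX peak was 1650 bp wide against 1500 bp for all peaks, with 5 of 37 wider than the 99th percentile of 6450 bp, and its log2 ratio to input was 1.54 against 1.31.

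H3K4me3 was strongest over much the same starts. The HOX peak with the most reads and the greatest width, 6300 bp, covered the starts of Hoxb7 and Hoxb8 and held 414, 800 and 866 scaled reads in libraries 1 to 3. The next held the Hoxa10 start, with 377, 554 and 843 scaled reads over 4200 bp, and the third the Hoxa7 start, with 329, 407 and 557 over 3750 bp. Hoxa13 had the highest ratio to input, a log2 ratio of 3.21. The gap between Hoxb13 and Hoxb9 also held a block that lies more than 2 kb from any HOX gene and so is not a member. It was an H3K18cr peak of 15000 bp (chr11:96250501-96265500) with 1272 and 2064 scaled reads. Several H3K4me3 peaks overlapped it, of which the strongest held 292, 452 and 569 scaled reads.

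Each gene was then classed by whether a peak of either mark lay within 1 kb of the start of its canonical transcript. Both marks were found at 19 of the 39 starts, and 17 of these genes were at 1 CPM or more, with a median of 26.9 CPM. Hoxa4, at 0.989 CPM, lay just under that level. H3K4me3 alone was found at 14 starts, with a median of 0.147 CPM and 4 genes at 1 CPM or more (Hoxb2, Hoxd11, Hoxd13 and, through library 3 alone, Hoxd1). This class held 7 of the 9 Hoxc genes and all of Hoxd9 to Hoxd13. H3K18cr alone was found at none. Neither mark was found at 6 starts, those of Hoxa2, Hoxb1, Hoxb3, Hoxc4, Hoxc6 and Hoxd4, of which Hoxa2, Hoxb3 and Hoxd4 were at 5.21, 15.3 and 19.8 CPM. Over all protein-coding genes with a start, 47.7% had both marks, 16.0% had H3K4me3 alone, 2.39% had H3K18cr alone and 33.9% had neither, with medians of 42.5, 0.349, 8.86 and 0 CPM. H3K4me3 was weaker where it stood alone at HOX starts, with a median log2 ratio of 1.65 (range 0.82 to 2.59) against 2.61 (1.87 to 3.21) where both marks were present. Within Hoxd, Hoxd9 had a log2 H3K4me3 ratio of 2.59 at 0.455 CPM and Hoxd8 one of 2.61 at 7.79 CPM, and only the second start had an H3K18cr peak.

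By the 2 kb rule, 17 genes had no H3K18cr peak in colon. They were Hoxb1, Hoxb3, Hoxd1, Hoxd4, Hoxd9 to Hoxd13 and all Hoxc genes but Hoxc11, whose single peak lay beyond its 3′ end. For H3K4me3 the genes with no peak were 3, Hoxa2, Hoxb1 and Hoxc4. Of the Hoxb3 exons, 2250 bp, or 52.9%, are shared with the antisense gene Hoxb3os, and without strand the reads of the pair cannot be told apart.

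The 250 bases before the starts of Hoxb13 and Hoxc9 are shown because they stand at the ends of the range: Hoxb13 had the highest mean level in colon and Hoxc9 had no read, although both starts carried H3K4me3. The windows were read from GRCm38 at chr11:96194066-96194315 and chr15:102976782-102977031, both on the plus strand, with CG dinucleotides in capitals.
Hoxb13: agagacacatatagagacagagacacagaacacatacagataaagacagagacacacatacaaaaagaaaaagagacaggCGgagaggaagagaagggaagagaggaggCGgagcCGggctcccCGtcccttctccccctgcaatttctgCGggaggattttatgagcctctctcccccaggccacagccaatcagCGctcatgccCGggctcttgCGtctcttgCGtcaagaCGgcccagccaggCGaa
Hoxc9: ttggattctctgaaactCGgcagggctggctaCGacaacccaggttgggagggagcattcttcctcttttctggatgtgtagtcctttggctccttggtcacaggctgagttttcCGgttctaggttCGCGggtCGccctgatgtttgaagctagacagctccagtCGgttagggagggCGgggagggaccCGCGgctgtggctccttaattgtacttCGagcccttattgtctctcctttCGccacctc
They hold 11 and 12 CG dinucleotides, against a median of 13 over the 39 Hox windows and 9 over 21905 protein-coding windows of the same length. All 250 bases of the Hoxb13 window lay in both an H3K18cr and an H3K4me3 peak, while the Hoxc9 window had 231 bases in an H3K4me3 peak and 0 in an H3K18cr peak. On either strand the Hoxb13 window holds the letters CCAAT (in 35.8% of all windows), TTTATG (9.14%), which CDX and posterior HOX proteins are known to bind, and TGATTG (13.3%), the core bound by HOX with PBX, the first and last overlapping each other. The Hoxc9 window holds none of these and no TATAAA (11.4%), which says only that these letters are not in this window.

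HCT116 cells with DMSO used the HOX clusters in a different proportion from colon. At 1 CPM or more, 25 of 39 genes were measured: 10 of 11 in HOXA, 8 of 10 in HOXB, 6 of 9 in HOXC and 1 of 9 in HOXD. The set summed to 489 ± 26.8 CPM (SD, n = 4), with 264 ± 28.8 CPM in HOXB, 187 ± 18.5 CPM in HOXA, 31.2 ± 4.99 CPM in HOXC and 6.06 ± 1.42 CPM in HOXD. HOXB1, HOXC12, HOXD1 and HOXD9 had no read in any DMSO library, where 3 reads would correspond to 0.0562 to 0.0826 CPM. The 5 highest genes per kb were HOXB7 (41.6 ± 6.48 CPM per kb), HOXB8 (30.8 ± 3.89), HOXA9 (26.9 ± 4.74), HOXB9 (16.1 ± 1.0403) and HOXA7 (15.6 ± 2.47). The HOXA7 level is uncertain, since 1507 bp of its exons, or 62.5%, are shared with the antisense gene HOXA-AS3.

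By a difference of over 10 times in CPM with 1 side at or above 1 CPM, 13 genes were measured in 1 system and nearly absent from the other. Among them, HOXC4, HOXC5, HOXC6, HOXC9, HOXC10 and HOXC13 were measured in HCT116 alone. The HOXC5 level is uncertain, since 67.3% of its exons are shared with another gene on the same strand, and HOXC4 and HOXC6 share 484 bp with each other. HOXC9, a posterior gene, was the highest of these with 11.6, 14.2, 14.9 and 7.62 CPM in DMSO libraries 1 to 4, against no read in colon. HOXC13 followed with 6.15, 5.87, 7.91 and 5.49 CPM, also against no read in colon. Hoxa2, Hoxd1, Hoxd3, Hoxd4, Hoxd11 and Hoxd13 were measured in colon alone. For Hoxd1 this rests on library 3, since it was at 0.122, 0.747 and 2.27 CPM. Hoxd3 stood at 28.1 ± 8.64 CPM against 0.346 ± 0.287 CPM in HCT116, and Hoxd13 at 8.74 ± 2.72 against 0.0140 ± 0.0281 CPM. HOXB13, first on average in colon at 131 ± 41.2 CPM, was at 17.6 ± 3.403 CPM in HCT116 and ranked 11th per kb there. Across the 21 genes of clusters A and B the mean levels of both systems had a Spearman correlation of 0.792, and across all 39 genes of 0.631. These describe genes that share libraries and are not independent.

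The HCT116 peaks followed the same division. Peaks covered 55.9% of HOXA, 39.6% of HOXB (60.8% without the gap before HOXB13), 17.3% of HOXC and 7.80% of HOXD. A peak lay within 1 kb of the start at 24 genes, with a median of 10.9 CPM, and at none of the other 15, with a median of 0.0960 CPM. The exceptions with a peak and under 1 CPM were HOXB2, HOXC8, HOXC11 and HOXD11, and those without a peak and at 1 CPM or more were HOXA5, HOXB5, HOXC4, HOXC6 and HOXC13. HOXA5, HOXB1, HOXC12, HOXC13, HOXD1, HOXD4 and HOXD9 had no peak within 2 kb at all, and of these HOXA5 and HOXC13 were measured, at 7.97 ± 1.46 and 6.35 ± 1.07 CPM. Most peaks were wide: the median was 3000 bp against 1950 bp for all peaks, and 2 of 29 were above the 99th percentile. The widest, 23250 bp (chr17:48568651-48591900), lay within HOXB3, whose canonical start it holds, and covered HOXB4 and the edge of HOXB5, and it held the hairpin of MIR10A. The median log2 ratio to input was 1.30 for H3K18cr and 1.043 for H3K18ac, against 1.09 and 1.02 over all peaks.

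**Figure D3:**
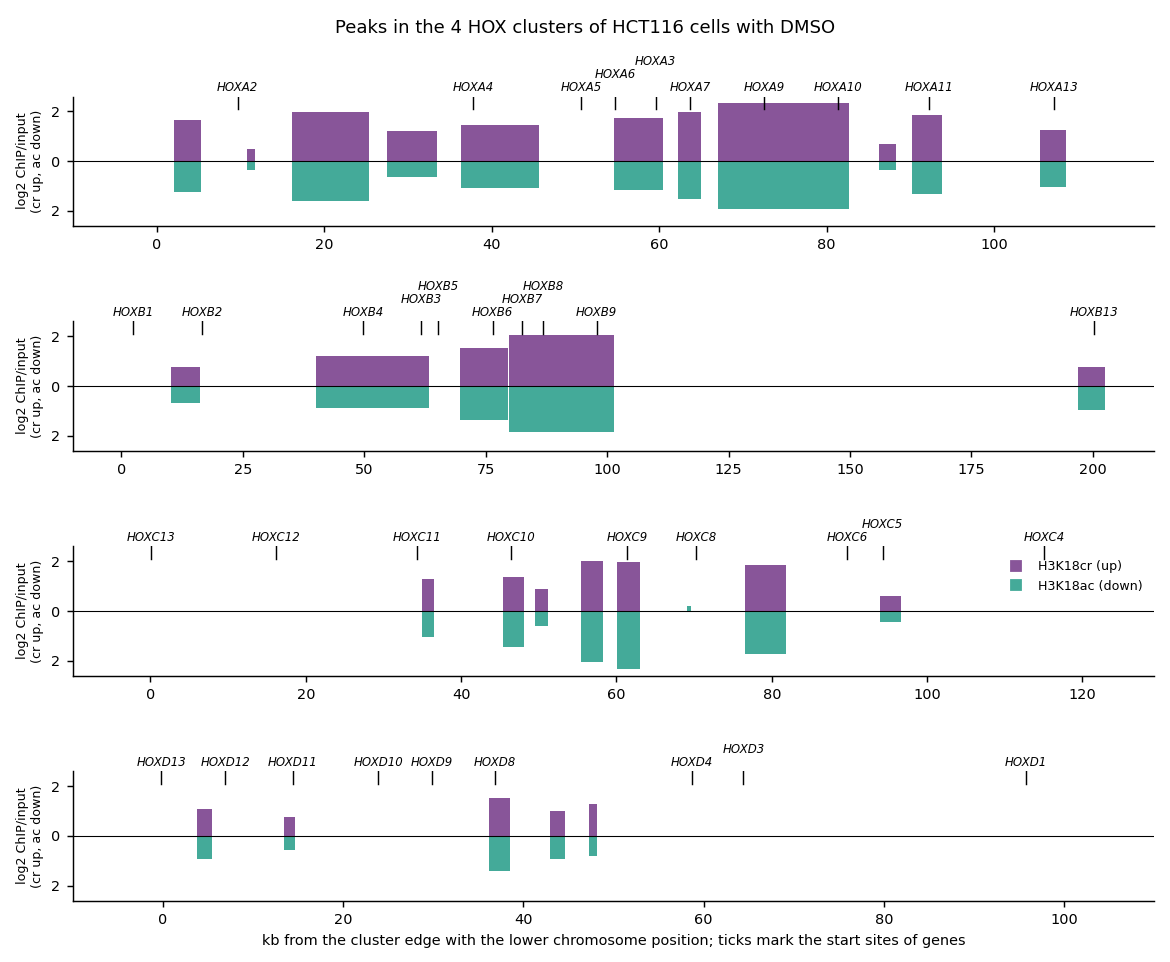
The 29 HOX peaks of HCT116 cells with DMSO; the x axis is distance in kb from the edge of each cluster with the lower chromosome position, the y axis the mean log2 ratio of ChIP to input over 3 libraries, with H3K18cr drawn upwards and H3K18ac downwards, and ticks mark the starts of all HOX genes but 1; 2 peaks more than 2 kb from any HOX gene are not drawn. The peaks over HOXA9 to HOXA10 and HOXB7 to HOXB9 are wide and high for both marks, and HOXC has peaks over HOXC9 whose mouse counterpart has no H3K18cr peak in colon.

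The window before the HOXB8 start is shown because HOXB8 had the smallest adjusted p of the HOX genes with MS275. It was read from GRCh38 at chr17:48615293-48615542 on the minus strand, with CG dinucleotides in capitals.
HOXB8: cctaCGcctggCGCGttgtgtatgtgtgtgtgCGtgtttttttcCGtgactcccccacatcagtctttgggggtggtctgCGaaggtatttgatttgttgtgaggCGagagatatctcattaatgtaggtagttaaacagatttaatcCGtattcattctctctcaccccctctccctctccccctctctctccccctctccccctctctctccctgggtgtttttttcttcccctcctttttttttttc
All 250 bases lay in a peak of the shared list, and the window holds 8 CG dinucleotides against a median of 15 over the 39 HOX windows and 18 over 20004 protein-coding windows. On either strand it holds none of CCAAT (in 34.3% of all windows), TGATTG (12.4%), TTTATG (6.92%) and TATAAA (9.34%).

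With MS275, HOX RNA in HCT116 was lower in sum, and the decrease lay mostly in HOXB. The set summed to 399.9 ± 33.4 CPM with MS275, or 81.8% of its DMSO level. HOXB stood at 73.6% of its DMSO level, HOXA at 88.8% and HOXC at 92.5%, while HOXD stood at 165%, most of it HOXD8. Of the 39 genes, 28 had enough reads to be tested. In edgeR's quasi-likelihood test without pairing, 0 of 28 passed a Benjamini-Hochberg adjusted p of 0.05, beside 0.00668% of all genes tested, and 5 of 28 had an unadjusted p under 0.05, beside 6.6% of all genes. DESeq2 without pairing passed 1 HOX gene, HOXB8, beside 0.993% of all genes (0.222% lower and 0.771% higher). Same-numbered DMSO and MS275 libraries deviated together, so a fit that takes out the level of each pair (the replicate block) is given beside it. With the replicate block, 6 HOX genes fell and 0 rose, beside 6.55% of all genes lower and 7.83% higher (14.4% in all), and 8 of 28 had an unadjusted p under 0.05, beside 29.2%. DESeq2 with the same block called the same 6 genes, beside 17.8% of all genes (8.65% lower and 9.14% higher). Over the 28 genes, 18 estimates were below 0 and 10 above, with a median log2 fold change of -0.19 against 0.01 over all genes.

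**Figure D4:**
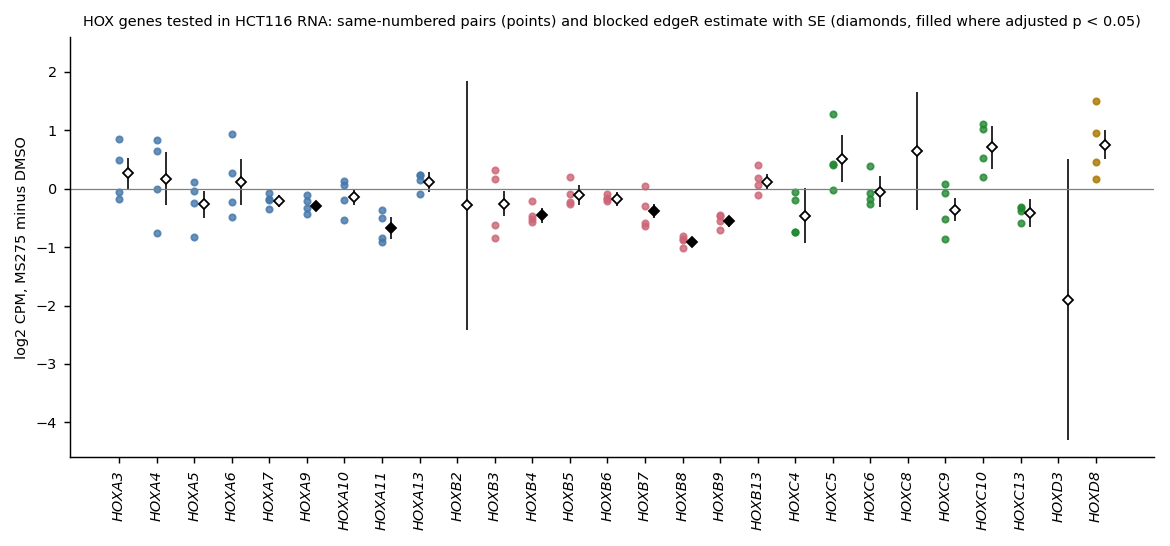
Change of the tested HOX genes (all but 1) with MS275 in HCT116; the y axis is log2 CPM with MS275 minus DMSO, points are the 4 same-numbered pairs (drawn where every library had at least 10 reads, so not for HOXB2, HOXC8 and HOXD3), and diamonds are the edgeR estimates with the replicate block and their standard errors, filled where the adjusted p is under 0.05. The 6 filled genes are HOXA9, HOXA11, HOXB4, HOXB7, HOXB8 and HOXB9, all below 0.

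HOXB8, a mid-cluster gene known from blood progenitors, was the most strongly lowered of the genes that passed. It was at 62.8, 78.7, 84.1 and 70.4 CPM with DMSO and at 34.4, 45.0, 41.7 and 38.1 CPM with MS275. The lowest DMSO library was above the highest MS275 library, and the 4 pairs moved alike. Its log2 fold change was -0.91 (SE 0.0865), with an adjusted p of 8.69e-05 in edgeR with the replicate block and 0.265 without it.

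HOXB9, its neighbour, was at 37.7, 42.6, 42.7 and 43.6 CPM with DMSO and at 25.8, 30.8, 26.0 and 31.7 CPM with MS275. The groups did not overlap. Its log2 fold change was -0.56 (SE 0.102), with an adjusted p of 0.00403 in edgeR with the replicate block and 0.427 without it. HOXB8 and HOXB9 were the 2 genes that stayed past 0.05 whichever of the 4 pairs was left out.

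The other 4 genes were less secure. HOXA11, a posterior HOXA gene, was at 14.3, 10.5, 13.6 and 8.87 CPM with DMSO and at 7.95, 7.35, 7.19 and 6.85 CPM with MS275, a log2 fold change of -0.68 (SE 0.185, adjusted p = 0.0296 in edgeR with the replicate block). HOXB4, which is known to expand blood stem cells, was at 24.1, 20.6, 28.8 and 19.3 CPM and then at 16.8, 17.9, 19.3 and 14.0 CPM, a log2 fold change of -0.46 (SE 0.129, adjusted p = 0.0338). For both genes no MS275 library reached the lowest DMSO library, although for HOXB4 the nearest were 19.29 and 19.32 CPM. HOXB7, the highest HOX gene per kb, was at 63.5, 61.9, 75.7 and 51.7 CPM and then at 40.7, 50.3, 78.4 and 34.4 CPM, a log2 fold change of -0.38 (SE 0.118, adjusted p = 0.0472). Its pair 3 went the other way. HOXA9, a posterior gene with a known role in leukaemia, was at 84.5, 97.1, 62.4 and 82.1 CPM and then at 62.6, 89.6, 49.4 and 70.7 CPM, a log2 fold change of -0.29 (SE 0.0859, adjusted p = 0.0417), with groups that overlap but 4 pairs that moved alike. Without pairing these 4 genes had adjusted p between 0.565 and 0.934 in edgeR. When 1 of the 4 pairs was left out, HOXA9, HOXB4 and HOXB7 each passed in 1 of 4 fits (HOXB4 without pair 2, the others without pair 3) and HOXA11 in 0 of 4, with 2 HOX genes called without pair 1, 3 without pair 2, 5 without pair 3 and 2 without pair 4. HOXA11 shares 27.2% of its exons with HOXA11-AS and HOXA9 shares 13.9% with HOXA10-AS, and without strand the reads of each pair cannot be told apart.

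Non-overlapping groups gave a similar list. In 4 of 28 genes (HOXA11, HOXB4, HOXB8 and HOXB9) all MS275 libraries lay below all DMSO libraries, beside 2.12% of all genes tested, and in 1 of 28 all MS275 libraries lay above, beside 2.95%. HOXD8 was at 7.17, 4.16, 5.91 and 4.79 CPM with DMSO and at 9.83, 11.8, 6.63 and 9.33 CPM with MS275, a log2 fold change of 0.75 (SE 0.251, adjusted p = 0.0632 in edgeR with the replicate block). It passed as higher in 1 of the 4 fits that left out a pair (without pair 3, adjusted p = 0.0207), where it is 1 of the 5 genes counted. Of its exons 24.4% are shared with the antisense gene HOXD-AS2, and without strand the reads of the pair cannot be told apart. HOXC9, the highest HOXC gene, had a log2 fold change of -0.36 (SE 0.193, adjusted p = 0.246), and HOXB13 one of 0.12 (SE 0.135, adjusted p = 0.612). The 11 genes not tested had under 1 CPM on average in both groups, and HOXB1, HOXC12, HOXD1 and HOXD9 had no read in any of the 8 libraries.

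Among genes around the HOX system 0 passed without the replicate block, beside 0.00668% of all genes, and the counts with the block stand beside 6.55% of all genes lower and 7.83% higher. Of 9 HOX cofactors (PBX, MEIS and PKNOX proteins, which bind DNA together with HOX), 7 were tested and 2 rose in edgeR with the replicate block, PBX3 (log2 fold change 0.62, adjusted p = 0.0397) and MEIS3 (0.40, adjusted p = 0.0240). Of the ParaHox and CDX genes, 2 of 6 were tested and CDX2, a master regulator of the intestine, fell by 0.44 on the log2 scale (adjusted p = 0.0442). CDX2 is also on the list of epithelial markers, of which 7 were tested and 4 rose with the block (KRT8, KRT18, KRT19 and CDH1, with log2 fold changes of 0.32, 0.29, 0.37 and 0.74) while 2 fell (EPCAM and CDX2). CDX1 had no read in HCT116, against 516 CPM for Cdx1 and 470.4 CPM for Cdx2 in colon. Of 19 noncoding genes of the clusters in the table, 8 were tested and 1 fell, HOXA10-AS, which is antisense to HOXA9 and HOXA10. It went from 24.9 ± 15.9 to 12.6 ± 6.09 CPM (log2 fold change -0.93). Library 3 was the high one in both groups, at 48.8 CPM with DMSO and 21.7 CPM with MS275. DMSO libraries 1, 2 and 4 stood at 18.4, 15.7 and 16.8 CPM. HOXA10-AS shares 422 bp of exon with HOXA9 and 608 bp with HOXA10, and without strand the reads of these genes cannot be told apart. Of 6 activators of HOX chromatin KMT2A rose and WDR5 fell, of 13 Polycomb genes BMI1 rose, and of 7 retinoic acid genes, 5 of them tested, CYP26B1 rose and RARG fell. EVX1 and EVX2, the neighbours of HOXA and HOXD, were not tested.

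For chromatin, each of the 29 HOX peaks was tested for each mark with limma on the log2 scale of scaled reads. ChIP-seq scaled by library gives the share of a library's reads at a peak and not the amount of the mark in the cell, so every change below is relative to the rest of the library. As scaled by library, relative H3K18cr was lower with MS275 at part of the HOX peaks. In limma 12 of 29 peaks fell and 0 rose, beside 23% of all peaks lower and 0.232% higher. In 11 of 29 peaks the groups did not overlap and MS275 was the lower, beside 29.9% of all peaks, and in 1 of 29 above, beside 3.16%. The count of peaks without overlap was thus near its background. The median log2 change was -0.42 over HOX peaks and -0.20 over all peaks, and 27 of 29 estimates were below 0. With the medians of the libraries set equal, which takes out that shift, 4 HOX peaks fell and 0 rose, beside 13.5% of all peaks lower and 1.22% higher, and the medians were -0.23 and -0.01. On recovered whole reads, edgeR with TMM called 3 HOX peaks, all lower, beside 11.5% of all peaks lower and 2.26% higher, and DESeq2 called 2 of the 19 to which it gave an adjusted p, beside 20.3% and 0.723%. With medians set equal, TMM or DESeq2, the count of lowered HOX peaks was thus near or under its background. The medians over HOX peaks and all peaks were -0.19 and 0.04 with TMM. In DESeq2 they were -0.19, over the 19 HOX peaks with an adjusted p, and -0.20. With the replicate block limma called 14, beside 26.1% and 0.515%.

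**Figure D5:**
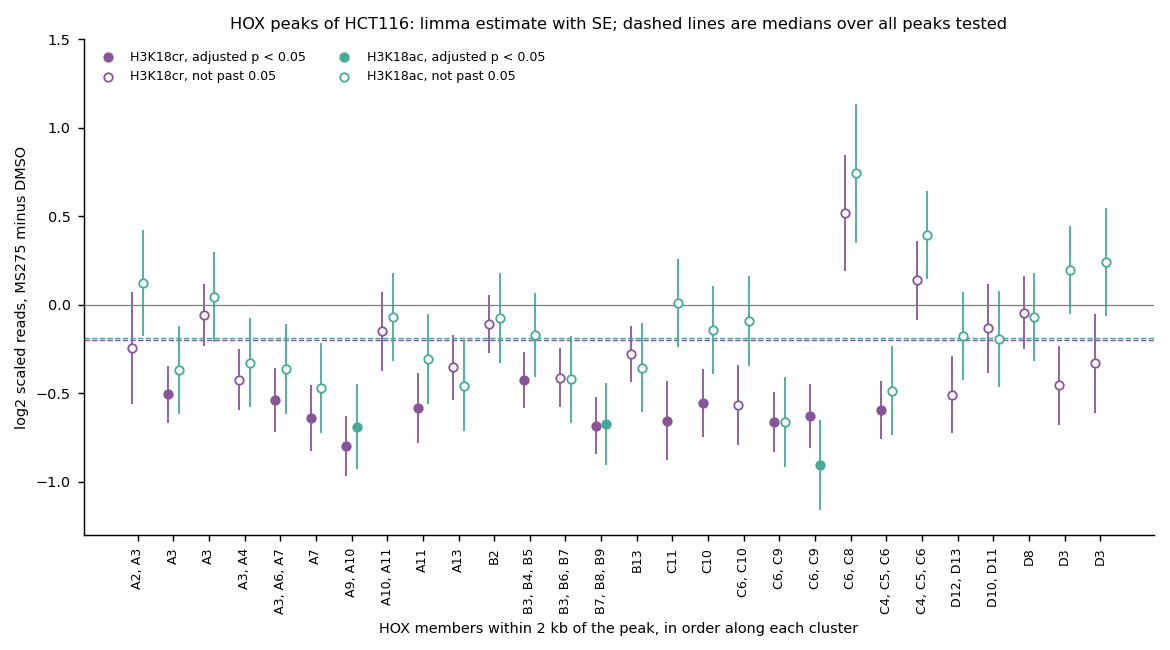
Change of the HOX peaks of HCT116 (all but 1) with MS275; the y axis is log2 scaled reads with MS275 minus DMSO, points are limma estimates with their standard errors for H3K18cr and H3K18ac, filled where the adjusted p is under 0.05, dashed lines are the medians over all peaks tested, and the x axis names the HOX genes (letters and numbers) within 2 kb of each peak along clusters A to D. For H3K18cr 12 peaks are filled and for H3K18ac 3, all below 0.

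The peak over HOXA9 and HOXA10 (chr7:27160051-27175650, 15600 bp) fell most for H3K18cr. It held 1948, 1724 and 1087 scaled reads in DMSO libraries 1 to 3 and 911, 850 and 899 with MS275. DMSO library 3 was the low one and still stood above the 3 MS275 libraries. The log2 change was -0.80 (SE 0.167, adjusted p = 0.000656 in limma). The peak over HOXB7, HOXB8 and HOXB9 (chr17:48608401-48629850, 21450 bp) had the most reads of all HOX peaks. It went from 2547, 2469 and 1593 to 1373, 1273 and 1385 scaled reads, a log2 change of -0.68 (SE 0.161, adjusted p = 0.00184 in limma). It holds the HOXB8 window printed above. The peak at chr12:53994151-53997000, which overlaps the HOXC9 gene upstream of its canonical start, went from 254, 253.9 and 213.5 to 135, 145.9 and 176.8 scaled reads, a log2 change of -0.66 (SE 0.168, adjusted p = 0.00352 in limma). These 3 peaks passed in each of the 6 fits that left out 1 library, and were also past 0.05 with medians set equal, but in DESeq2 the HOXC9 peak was not (adjusted p = 0.0728).

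The other 9 lowered H3K18cr peaks had log2 changes from -0.65 to -0.42 and adjusted p up to 0.0496. In HOXA they lay over HOXA3, over HOXA6 with the HOXA3 start (chr7:27147601-27153450), over HOXA7 and over HOXA11. The rest lay over HOXC11, HOXC10, the HOXC9 start, HOXC4 to HOXC6 (chr12:54015301-54020550) and HOXB3 to HOXB5. The last, with the widest peak, went from 1614, 1399 and 1012 to 1042, 952 and 955 scaled reads, so DMSO library 3 lay below MS275 library 1. Without the replicate block none of the 5 HOXD peaks passed, and neither did those at HOXA13, HOXB2 and HOXB13. With the block the HOXB3 to HOXB5 peak no longer passed. Peaks by HOXD12 and HOXD13, by HOXA3 and HOXA4, and by HOXC6 and HOXC10 then did. At the HOXD12 to HOXD13 peak and at HOXB13 all MS275 libraries lay below all DMSO libraries. The largest positive estimate was at a 600 bp peak by HOXC8 (chr12:54007801-54008400), from 12, 17.7 and 15.5 to 19.1, 22.7 and 22.4 scaled reads, without overlap but with a log2 change of 0.52 (SE 0.328, adjusted p = 0.302 in limma).

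The H3K18cr calls depended on the libraries. DMSO library 3 was the lowest of the 3 DMSO libraries at 23 of 29 HOX peaks, with a median ratio of 0.671 to the mean of the others, against 0.875 over all peaks. Left out, it gave 16 called HOX peaks. Without DMSO library 1 the count was 4, without DMSO library 2 it was 5, without MS275 library 1 it was 5, without MS275 library 2 it was 6, and without MS275 library 3 it was 8.

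For H3K18ac 3 of 29 peaks fell and 0 rose, beside 16.3% of all peaks lower and 0.264% higher, and the median change was -0.19 over HOX peaks and -0.19 over all peaks, which turned to 0.06 for both with TMM. In 1 of 29 peaks the groups did not overlap with MS275 the lower, beside 23.1% of all peaks, and in 0 of 29 with MS275 the higher, beside 3.33%. The start of HOXC9 (chr12:53998801-54001800), went from 208.3, 271.5 and 393.9 to 198.6, 122.1 and 140.4 scaled reads, a log2 change of -0.90 (SE 0.254, adjusted p = 0.00521 in limma). It was the peak without overlap. The HOXA9 to HOXA10 peak went from 746, 1136 and 1937 to 987, 657 and 607 scaled reads (-0.69, SE 0.239, adjusted p = 0.0298 in limma). The HOXB7 to HOXB9 peak went from 1383, 1774 and 2659.5 to 1388, 1094 and 1063 scaled reads (-0.67, SE 0.230, adjusted p = 0.0262 in limma). In both of them MS275 library 1 stood above DMSO library 1, and so the groups overlap. With 1 library left out each passed in 2 of 6 limma fits, and the log2 change ran from -1.02 (without DMSO library 1) to -0.33 (without DMSO library 3) at HOXA9 to HOXA10 and from -0.89 to -0.42 (without the same libraries) at HOXB7 to HOXB9.

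H3K18ac libraries spread more than those of H3K18cr. DMSO library 3 was the highest DMSO library at 27 of 29 HOX peaks and MS275 library 1 the highest MS275 library at 26, with median ratios to the others of 1.48 and 1.504 against 1.28 and 1.21 over all peaks. Without DMSO library 2, MS275 library 2 or MS275 library 3, 0 HOX peaks passed. Without DMSO library 1 there were 7, without MS275 library 1 there were 5, and without DMSO library 3 there were 2. With medians set equal, 4 HOX peaks fell and 1 rose, beside 20% of all peaks lower and 1.9% higher, and edgeR with TMM gave the same counts, beside 16.6% and 4.6%. DESeq2 called 2, both lower, of the 23 to which it gave an adjusted p, beside 24.7% and 1.67%, and limma with the replicate block called 0, beside 2.01% and 0.0224%. The one that rose lay in HOXC4 to HOXC6 (chr12:54032701-54035400), with 69.1, 52.8 and 127.4 scaled reads with DMSO and 144.1, 87.4 and 83.8 with MS275 before that scaling.

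The change with MS275 was then compared between the marks in 1 limma model with their interaction. At 0 of the 29 HOX peaks did the marks differ at an adjusted p of 0.05, as at 0 of all 40266 peaks, and at 0 of 29 was the unadjusted p under 0.05, beside 1.84% of all peaks. The larger number of H3K18cr calls is therefore not shown to be a larger change: the median difference, H3K18ac minus H3K18cr, was 0.11 on the log2 scale. The peak that covers HOXB8 and HOXB9 was lowered for both marks without the replicate block, but for H3K18ac not with it (adjusted p = 0.253 in limma), while the RNA of both genes passed in edgeR with the block and not without it. At HOXB13 and HOXD8 no peak passed for either mark.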

How the data were processed

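The members and gene lists were chosen with earlier results of these data known. Per the study's methods, the authors trimmed reads (Trim Galore 0.4.2 in the submitters' processing notes), mapped RNA to GRCm38 with HiSat2, and quantified it in SeqMonk; the aligner for HCT116 RNA is not given there, and the notes also name TopHat2 2.0.12 and Bowtie2 2.2.5. The authors deposited raw read counts per gene. For ChIP the authors mapped reads with Bowtie2, removed duplicates, called 1 MACS peak list per table, and deposited read signal per peak multiplied by 1 scaling factor per library (scaled reads). After division by that factor 100% of the values came out as whole reads, within a tolerance of 0.02 read, counting as 0 the few that the files hold at 0.9 of a read.

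CPM were computed from the counts of all genes, and CPM per kb with union exon lengths of GENCODE, whose gene starts (canonical transcript) gave the TSS windows. Enrichment was log2 of ChIP over input with 1 scaled read added. HCT116 RNA was tested with edgeR 4.0.16 (quasi-likelihood, TMM, filterByExpr, R 4.3.3) on all genes, without and with a term for the replicate number. Residuals of same-numbered DMSO and MS275 libraries correlated at 0.226, 0.151, 0.433 and 0.460, all over 0.1, which pairs them by label number, although DMSO library 2 correlated better with MS275 library 4 (0.239) than with its own number. Peaks with at least 10 scaled reads in 3 of 6 libraries were tested with limma 3.58.1 (trend) on log2 of the deposited signal, and DESeq2 1.42.0 was an alternative. Adjusted p are Benjamini-Hochberg over all features tested. Scripts were tested on simulated data.

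Named in full were the 5 highest genes per kb in each system, genes past 0.05 with or without the block, those measured on 1 side only by over 10 times, genes without a peak, the 3 peaks with most reads and the widest peak per table, and called peaks. Windows of 250 bases were read from the GRCm38 and GRCh38 genomes. Results on 1 gene and 1 window are not reported here.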

Additional observations from a re-analysis of the deposited data

Results flagged for a closer look

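In 6 of 56 groups of 4 HCT116 RNA libraries 1 library lay far from the others by Dixon's test, where chance flags about 1 in 20. HOXA13 was at 5.53 CPM in DMSO library 3, against 11.2 to 12.3 CPM in the others, and at 5.2 CPM in MS275 library 3, against 13.2 to 13.6 CPM. HOXA7 was at 43.9 CPM in MS275 library 3, against 28.6 to 30.2 CPM. HOXC9 was at 14.1 CPM in MS275 library 3, against 7.78 to 8.1 CPM. HOXA5 was at 10.1 CPM in DMSO library 1, against 7.04 to 7.56 CPM. HOXB9 was at 37.7 CPM in DMSO library 1, against 42.6 to 43.6 CPM. HOXA13 was low in both libraries numbered 3, and its log2 fold change with the replicate block was 0.12 (SE 0.168).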

How the results depend on the processing

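For HCT116 RNA, where 0 HOX genes passed without pairing, DESeq2 gave 1 and the replicate block 6; chosen after seeing the data, the block with DESeq2 size factors, DESeq2 or library sizes gave 6 each and with no filter 7. Leaving out 1 library or pair gave 0 to 5. For H3K18cr, 12 called HOX peaks became 2 with DESeq2, 3 with TMM, 4 with medians set equal and 4 to 16 with 1 library left out; the replicate block gave 14. For H3K18ac, 3 became 5 with TMM, 5 with medians set equal (also with the block, an added alternative), 0 with the replicate block and 0 to 7 with 1 library left out, and the median HOX change turned to 0.0722 with DESeq2 (-0.10 over the 23 peaks with an adjusted p) and 0.0630 with TMM. ChIP libraries share only a number: same-number correlations were 0.0729 to 0.229 for H3K18cr and -0.207 to 0.0464 for H3K18ac, and not every library correlated best with its own number. H3K18ac estimates were below 0 at 22 of 29 HOX peaks, at 17 with medians set equal and at 14 with TMM. Among peaks called for either mark, the change turned sign at the HOXC10 peak (0.108 with DESeq2, 0.115 with TMM, 0.00901 with medians set equal, with and without the block) and the HOXB3 to HOXB5 peak (0.0722 and 0.0769). With 1 library left out it ranged from -0.325 to 0.0224 there (above 0 without DMSO library 3), from -0.614 to 0.0560 at HOXA11 (above 0 without DMSO library 3) and from -0.226 to 0.246 at HOXC11 (below 0 without DMSO library 1, at -0.195, or MS275 library 1). HOXB13 RNA ranged from -0.0120 to 0.301, below 0 without MS275 library 3. With gene span in place of exon length the share of Hoxb in colon was 71.2%, and those of HOXC and HOXD in HCT116 were 3.95% and 2.37%, against 7.25% and 1.12%. With a pseudocount of 10 the median log2 ratio to input over HOX peaks was 1.34 for colon H3K18cr and 1.29 for H3K4me3, which was 2.02 in library 3 alone. The causes were not tested. Depth limits the 8 silent colon genes to the floors given. Enrichment over input was not tested: colon H3K18cr had 2 libraries and 2 inputs, and HCT116 had 1 input per treatment.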

Other observations

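The miRNA genes of the human clusters lay partly inside the HOX peaks of HCT116: MIR196B in the HOXA9 to HOXA10 peak, MIR10A in the HOXB3 to HOXB5 peak and MIR615 in the HOXC4 to HOXC6 peak at chr12:54032701-54035400, while MIR10B, MIR196A2 and MIR196A1 lay in none. Mature miRNA levels were not analysed here. In the gap between HOXB9 and HOXB13 a peak of 11850 bp (chr17:48637051-48648900) held 674, 648 and 438 scaled H3K18cr reads in DMSO libraries 1 to 3, and the gap between Hoxb13 and Hoxb9 of mouse colon also held a wide H3K18cr peak, of 15000 bp.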
